A study of Homo sapiens with 688 samples.

Results

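The comparison set BT20 cells treated with idarubicin directly against BT20 cells treated with mitoxantrone, with no vehicle sample in the contrast. Its members were the 12 PLATE-Seq wells labelled Idarubicin HCl and the 12 labelled Mitoxantrone Hydrochloride, taken by label and well number, together with 2 TruSeq pools of each drug. These 28 samples were part of a series of 688, which also holds other compounds in BT20 cells, untreated LNCaP cells and a compound screen in U87 cells. PLATE-Seq puts a barcode on the cDNA of each well during reverse transcription and reads the 3' ends of transcripts from a pooled library, while TruSeq makes a conventional library from each sample. BT20 is an established epithelial breast carcinoma cell line without estrogen and progesterone receptors.

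The idarubicin wells received 0.084 µM and the mitoxantrone wells 0.18 µM, each for 6 h. Both doses had been set to leave 80% of the cells viable after 48 h. Time and target viability were thus matched while the concentrations were not. An effect of the compound cannot be told apart from an effect of its dose. The plate also held 12 DMSO wells, the vehicle control, which are given here for reference only. On the plate each drug kept 1 position in every run of 8 wells, so well position and drug cannot be told apart either. Each TruSeq pool combined material of 6 of the same wells, and the labels do not name which, so the pools were a second measurement of the same cultures rather than new cultures. All 4 drug pools carry the same sequencing lane in their labels and the DMSO pools the other. Nothing in the labels says that wells were independent cultures beyond being separate wells of 1 plate, so the p-values measure the spread between wells and pools.

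Idarubicin and mitoxantrone are both inhibitors of topoisomerase II, the enzyme that passes one DNA duplex through a break in another and thereby untangles replicated chromosomes. Idarubicin is an anthracycline that carries an amino sugar and lacks the methoxy group of daunorubicin, and mitoxantrone is an anthracenedione without a sugar. Drugs of both kinds hold the enzyme on cut DNA, which engages the DNA damage checkpoint. When that checkpoint is engaged, genes of the G2 and M phases can be repressed. Repressor complexes bind the cell cycle genes homology region of their promoters, many of which also hold CCAAT boxes. DNA breaks can also engage NF-kB, a family of transcription factors that drives inflammatory and survival genes and several of its own subunits and inhibitors.

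The wells of the 2 drugs held between 861531 and 1213811 counts and the pools between 23646106 and 29068232. The pools of a drug differed by more than sampling noise (chi-square per degree of freedom of 2.27 for mitoxantrone and 3.13 for idarubicin), so none was a repeat of another. Epithelial markers were present under both drugs: 8 of the 9 epithelial markers stood at 10 CPM or more, CPM being a count scaled to the total of its library, in the pools of both, EGFR and KRT5 among them, and CLDN4 did not. KRT19 stood near 0 in the wells, with a count in 2 of 24, and at 456 and 498 CPM in the pools of idarubicin and mitoxantrone. Of 15 markers of blood, endothelium, fibroblasts, prostate, hormone-responsive breast and glia, 10 were under 1 CPM in the pools of both drugs, PGR among them, while ESR1, which encodes the estrogen receptor, stood at 6.64 and 7.55 CPM. Idarubicin wells contained 11944 ± 254 genes with a count (SD, n = 12) against 11633 ± 228 in mitoxantrone wells (two-sided permutation test, p = 0.00504, Benjamini-Hochberg adjusted p = 0.0176 over 7 depth measures). Their total count was 1.09 times as high (p = 0.0508, adjusted p = 0.0888). At a common depth of 100000 counts the difference was 69.1 genes (7706 ± 168.8 against 7637 ± 85.4, p = 0.217), and at 400000 counts it was 172.1 genes (p = 0.0118, adjusted p = 0.0275). In the 12 wells with spike-ins, the endogenous counts per spike-in count averaged 16.8 ± 2.88 with idarubicin and 16.0 ± 2.33 with mitoxantrone (n = 6 each, two-sided exact permutation test, p = 0.621). The part of depth in the gene results was not tested.

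The wells separated the drugs by 5 genes. PLK1, UBE2C, BUB1B and ID3 were lower and RELB was higher with idarubicin, among 6590 genes tested (0.0759% called at an adjusted p under 0.05 by the edgeR quasi-likelihood test, 0.0607% lower and 0.0152% higher). The lower group held 3 genes of mitosis: the kinase PLK1, the ubiquitin-conjugating enzyme UBE2C, which works with the anaphase-promoting complex, and the spindle checkpoint kinase BUB1B. RELB is a subunit of NF-kB, and ID3 is an inhibitor of basic helix-loop-helix transcription factors. At an unadjusted p under 0.05 there were 405 genes (6.15% of those tested), and DESeq2 called 8. No gene had 12 wells of one drug entirely above the 12 wells of the other (0% of the genes tested).

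PLK1 (chr16:23688977-23701688, GRCh37) drives entry into mitosis and the assembly of the spindle. Its level in the idarubicin wells was 41.4 CPM at the lowest, 75.0 at the median and 117.2 at the highest. In the mitoxantrone wells the corresponding values were 90.9, 143.3 and 190.8, and in the DMSO wells 275, 401 and 465.8. All 12 idarubicin wells lay below the mitoxantrone median and 9 lay below the lowest mitoxantrone well, and both drugs lay wholly below DMSO. The log2 difference, idarubicin minus mitoxantrone, was -0.90 ± 0.14 (SE, adjusted p = 0.000271), a level 1.86-fold higher with mitoxantrone. In the pools PLK1 measured 30.0 and 30.2 CPM with idarubicin, 66.3 and 62.0 with mitoxantrone, and 157.5 and 170.5 with DMSO. The difference there was -1.07 ± 0.06 (adjusted p = 3.16e-14).

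UBE2C (chr20:44441215-44445596, GRCh37) ranged from 200 to 406 CPM with a median of 286 in the idarubicin wells, and from 342 to 520 with a median of 383 in the mitoxantrone wells. All but 1 of the idarubicin wells lay below every mitoxantrone well. The log2 difference was -0.47 ± 0.09 (adjusted p = 0.0106), and DMSO wells stood at 649 to 1009 CPM. The pools gave 109.9 and 108.98 CPM with idarubicin against 150.2 and 143.2 with mitoxantrone, a difference of -0.40 ± 0.05 (adjusted p = 9.11e-07).

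BUB1B (chr15:40453224-40513324, GRCh37) ranged from 56.8 to 143.02 CPM with a median of 93.5 in the idarubicin wells and from 103.8 to 191.6 with a median of 144.7 in the mitoxantrone wells. The groups overlapped, with 7 idarubicin wells below the lowest mitoxantrone well and 12 below the mitoxantrone median. The log2 difference was -0.59 ± 0.13 (adjusted p = 0.0359) in the wells and -0.26 ± 0.05 (adjusted p = 0.00101) in the pools, which held 78.9 and 79.7 CPM against 94.6 and 98.4.

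RELB (chr19:45504719-45541450, GRCh37) was the 1 gene called higher with idarubicin in the wells. It ranged from 24.2 to 68.6 CPM with a median of 48.5 with idarubicin, from 8.52 to 39.9 with a median of 23.0 with mitoxantrone, and from 1.03 to 19.4 with a median of 9.54 with DMSO. Of the idarubicin wells, 10 lay above the highest mitoxantrone well, and 12 lay above the highest DMSO well. Of the mitoxantrone wells, 8 lay above the highest DMSO well. The log2 difference was 1.05 ± 0.21 (adjusted p = 0.0145), a level 2.06-fold higher with idarubicin. With the DMSO wells in the fit the adjusted p was 0.0526, and with all wells of the plate it was 0.533. The pools gave 52.1 and 55.7 CPM with idarubicin, 32.0 and 32.9 with mitoxantrone and 12.5 and 13.6 with DMSO, a difference of 0.76 ± 0.07 (adjusted p = 1.07e-08).

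ID3 (chr1:23884417-23885992, GRCh37) was the exception between the assays. In the wells it ranged from 7.32 to 44.4 CPM with a median of 28.8 with idarubicin, from 26.5 to 96.8 with a median of 46.2 with mitoxantrone, and from 18.7 to 50.1 with a median of 40.4 with DMSO. The log2 difference was -1.07 ± 0.22 (adjusted p = 0.0174). The pools, made from the same wells, held 54.1 and 53.8 CPM with idarubicin and 55.8 and 56.9 with mitoxantrone, a difference of -0.04 ± 0.07 (adjusted p = 0.834). The other 4 genes were called in both assays in the same direction.

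**Figure D1:**
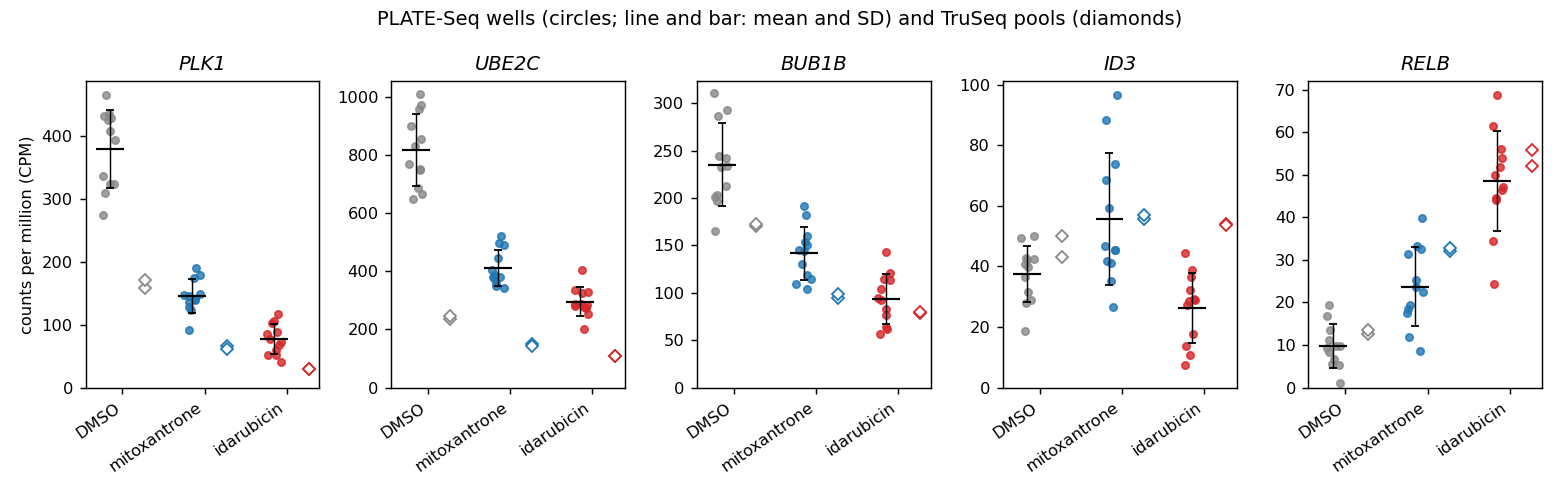
Level of the 5 genes called between the drugs in the wells, in CPM on linear axes from 0. Circles are the 12 PLATE-Seq wells of DMSO, mitoxantrone or idarubicin with mean and SD, and diamonds are the 2 TruSeq pools; mitoxantrone lies between DMSO and idarubicin for PLK1, UBE2C, BUB1B and RELB, and ID3 separates the drugs in the wells but not in the pools.

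The threshold left out genes close to it. NEK2, a centrosome kinase of mitosis, had a log2 difference of -0.86 and an adjusted p of 0.0676, and TAP1, a peptide transporter of antigen presentation, had 1.11 and 0.0772. Both were named after their values were seen. CCNB1, which encodes cyclin B1, the partner of CDK1 at the entry into mitosis, had -0.57 ± 0.15 (adjusted p = 0.146). Each group of 12 wells was also divided by position on the plate. The PLK1 difference was -0.85 without the last 6 wells of each drug and -0.96 without the first 6, and with 6 wells a drug no gene was called in either set (adjusted p for PLK1 of 0.122 and 0.210, with 337 and 320 genes at an unadjusted p under 0.05). In the 12 wells that had received spike-ins no gene was called (342 at an unadjusted p under 0.05, PLK1 difference -0.66), and in the other 12 PLK1 was the 1 gene called (difference -1.18). DESeq2 was not run on these sets of 12 wells.

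The G2 and mitosis genes as a group separated the wells fully. The list was drawn up with earlier results of these wells known and holds PLK1, UBE2C and BUB1B, so this separation is not independent evidence. The summed level of the 72 genes of this list was 2923 to 3615 CPM in the idarubicin wells with a median of 3167, and 3797 to 4262 in the mitoxantrone wells with a median of 3960. All 12 idarubicin wells lay below the lowest mitoxantrone well, and all 12 mitoxantrone wells lay between them and the DMSO wells, which held 6692 to 7189 CPM. The pools gave 6915 and 6969 CPM with idarubicin, 8485 and 8307 with mitoxantrone and 14302 and 14300 with DMSO. Of the 64 members tested in the wells, 53 had a difference below 0 (50.3% of all genes did), 3 were called lower and none higher (23 at an unadjusted p under 0.05), and the median difference was -0.30 against 0.00 over all genes. A lower sum can reflect fewer cells of a phase or less RNA in each cell, which bulk samples cannot tell apart.

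The G1/S and NF-kB sums overlapped between the drugs. The 53 genes of G1/S and replication summed to 3049 to 3694 CPM with idarubicin and to 2928 to 3667 with mitoxantrone, both above the 2296 to 2829 of DMSO. The 30 NF-kB genes summed to 690 to 918 CPM with idarubicin, 566 to 761 with mitoxantrone and 582 to 746 with DMSO, and 8 idarubicin wells lay above the highest mitoxantrone well.

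**Figure D2:**
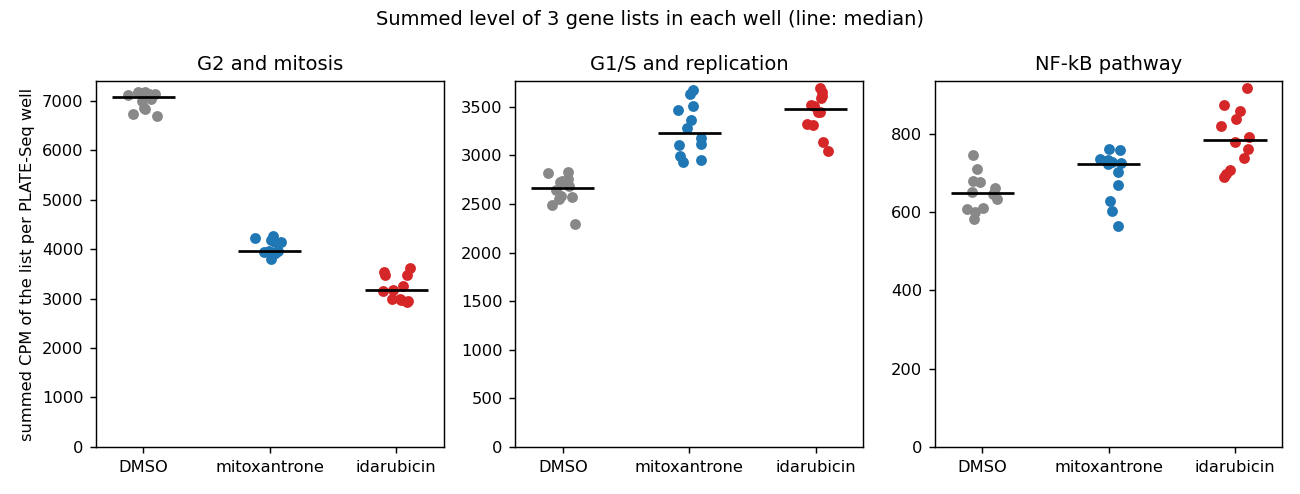
Summed CPM of the G2 and mitosis, G1/S and replication and NF-kB lists in each PLATE-Seq well, on linear axes from 0, with the median of the 12 wells as a line. The mitotic sums of the 3 groups do not overlap (idarubicin 2923 to 3615, mitoxantrone 3797 to 4262, DMSO 6692 to 7189), whereas the G1/S and NF-kB sums of the drugs do. The lists were chosen with earlier results of these data known.

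At the depth of the pools the drugs separated by 659 of 14970 genes (4.4%), 261 higher (1.74%) and 398 lower (2.66%) with idarubicin. The differences were small, with a median fold of 1.22 among called genes, and 79 genes (0.528%) also reached 1.5-fold, 24 higher (0.16%) and 55 lower (0.367%). Of the called genes, 384 were also tested in the wells, where 298 (77.6%) had the same sign; over the 6574 genes tested in both assays the share was 57.8%. The number called rested on the replicate pools: it was 241 without mitoxantrone pool 1, 195 without mitoxantrone pool 2, 322 without idarubicin pool 1 and 272 without idarubicin pool 2, each with the lone pool assumed to vary like the other groups. It was 428 with DESeq2 and 1452 with the 4 drug pools alone in the fit.

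Of the 659 genes, 367 (55.7%) had mitoxantrone between DMSO and idarubicin in mean CPM, 74 had idarubicin between DMSO and mitoxantrone, and 218 had the drugs on opposite sides of DMSO. This order follows in part from the call and was not tested. All 48 called genes of the G2 and mitosis list, all 10 called higher of the G1/S list and all 6 called higher of the NF-kB list had mitoxantrone in the middle. The lists were drawn up with earlier results of these data known, in which both drugs lowered mitotic genes against DMSO. For such genes a lower call with idarubicin puts mitoxantrone in the middle, so the order of the 48 is not independent evidence.

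**Figure D3:**
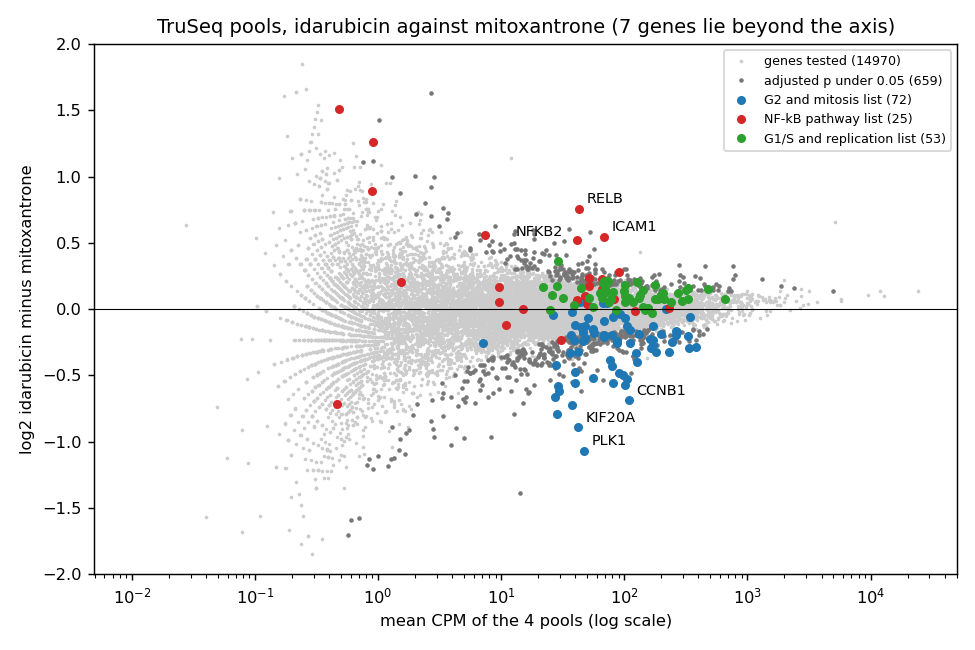
TruSeq log2 difference, idarubicin minus mitoxantrone, against the mean CPM of the 4 drug pools on a log axis, for the 14970 genes tested, with the 659 called genes in dark grey and 3 lists in colour. The G2 and mitosis genes lie mostly below 0, down to PLK1 at -1.07, and RELB, ICAM1 and NFKB2 stand above 0.

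In the pools 48 of the 72 G2 and mitosis genes were called lower with idarubicin and none higher, beside 2.66% of all genes called lower. In all, 68 had a difference below 0 (50.1% of all genes did) and the median was -0.24, against 0.00 over all genes tested. Without mitoxantrone pool 1 the count was 30, and with each of the other pools left out in turn it was at most 39. The list was drawn up with earlier results of these wells known, in which both drugs lowered mitotic genes against DMSO, so its direction is not independent evidence.

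Among the mitotic kinases, 5 of 9 were called lower. PLK1 differed most, followed by AURKA, the Aurora kinase of the centrosome, at 80.9 and 80.2 CPM with idarubicin and 122.9 and 121.3 with mitoxantrone (-0.58 ± 0.04, adjusted p = 1.07e-10). AURKB, the Aurora kinase of the chromosomal passenger complex, was at 0.05 ± 0.05 (adjusted p = 0.723) and was not called, so the paired Aurora kinases differed in their calls, though the difference between them was not tested. Among the kinesins, the motors of the spindle, 8 of 11 were called lower. KIF20A, which acts in cytokinesis, measured 30.0 and 28.6 CPM with idarubicin against 58.5 and 52.0 with mitoxantrone (-0.89 ± 0.06, adjusted p = 2.15e-12), a level 1.85-fold higher with mitoxantrone. In the wells KIF20A ranged from 4.24 to 40.5 CPM with idarubicin and from 5.85 to 55.9 with mitoxantrone, and its difference of -0.34 ± 0.30 was not called there (adjusted p = 0.931).

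Of the cyclins and CDK regulators 3 of 8 were called lower. CCNB1 measured 84.2 and 83.0 CPM with idarubicin and 137.2 and 136.4 with mitoxantrone (-0.69 ± 0.04, adjusted p = 1.73e-12). CCNA2, which encodes the cyclin of S phase and early mitosis, measured 95.9 and 100.9 CPM against 105.05 and 104.3 (-0.06 ± 0.05, adjusted p = 0.561) and was not called. Of the anaphase-promoting complex and its substrates 3 of 6 were called lower, UBE2C among them. Of the kinetochore and centromere genes 5 of 10 were called, within a narrow range whose lowest value was that of CENPF, at 220 and 227 CPM against 265 and 274 (-0.25 ± 0.05, adjusted p = 0.00105).

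Of the genes of the spindle, cytokinesis and chromosome structure, 20 of 21 were called lower. HMMR, which encodes a spindle-assembly protein, measured 21.1 and 20.5 CPM with idarubicin against 36.7 and 36.5 with mitoxantrone (-0.79 ± 0.07, adjusted p = 5.04e-10). PSRC1, whose product binds spindle microtubules, measured 23.9 and 22.3 against 36.5 and 35.9 (-0.62 ± 0.06, adjusted p = 3.01e-08). CEP55, a protein of the midbody, was the member of this role not called. Of the remaining 7 genes 4 were called. DEPDC1 stood at -0.72 ± 0.06 (adjusted p = 1.99e-10). FOXM1, the transcription factor that activates many genes of this list, measured 335 and 328 CPM with idarubicin and 357 and 347 with mitoxantrone (-0.06 ± 0.04, adjusted p = 0.438) and was not called.

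**Figure D4:**
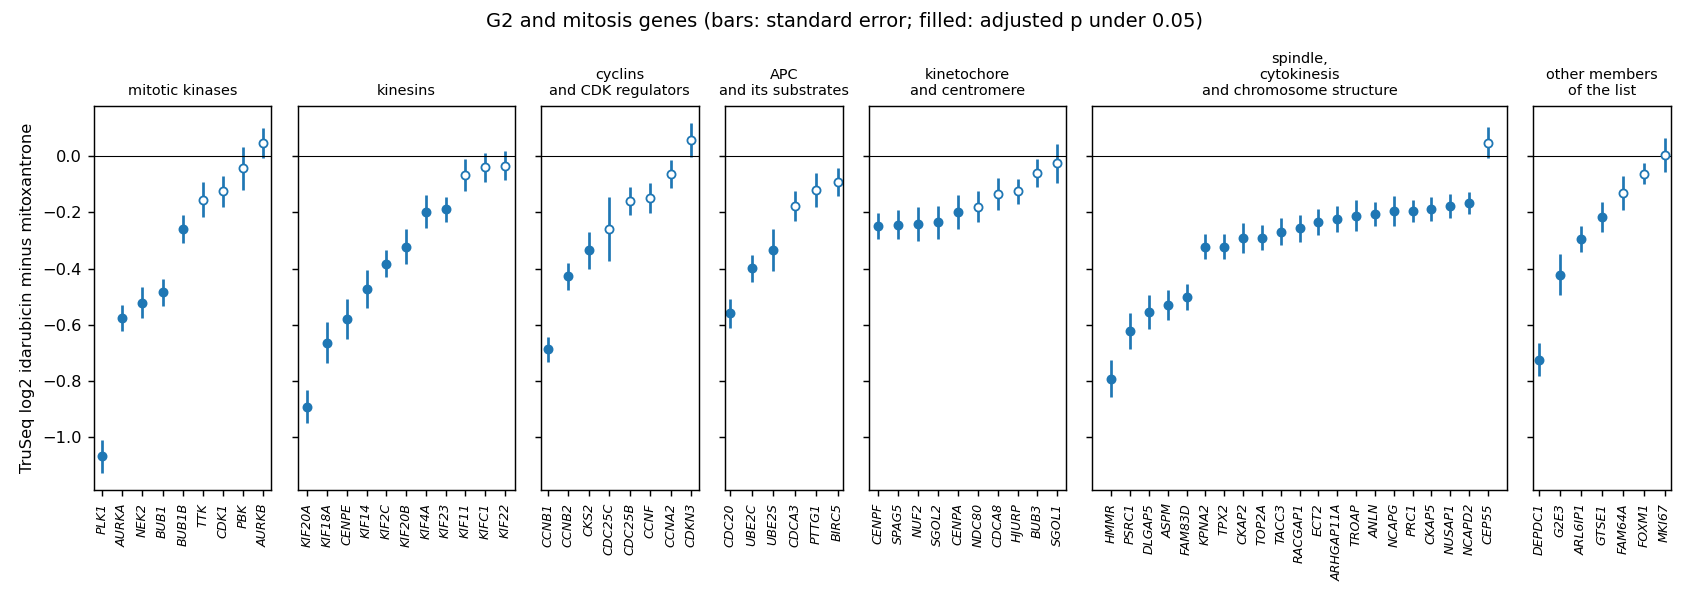
TruSeq log2 difference, idarubicin minus mitoxantrone, of the 72 G2 and mitosis genes by role, with the standard error as bars and filled points for an adjusted p under 0.05. All filled points lie below 0 and the lowest is PLK1 at -1.07; FOXM1, CCNA2 and AURKB are open points near 0.

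The promoters of the mitotic genes were read for the letters of the elements named above. RefSeq promoters (GRCh38.p14, 250 bases before to 50 after the start) were found for 58 of the 72 genes. The cell cycle genes homology region was searched as TTTGAA or TTCGAA and the CCAAT box as CCAAT, each on both strands, with overlapping matches all counted. Of the 58 promoters 43 (74.1%) held TTTGAA or TTCGAA, against 16.6% of the 27305 promoters in the table and 10.9% of those of genes tested in the pools. CCAAT was in 43 (74.1%), against 35.7% and 36.6%. The 41 promoters of genes called lower held them in 31 (75.6%) and 29 (70.7%) cases, shares near those of all 58 promoters of the list. A match of letters is a description and not evidence of binding. The promoters of PLK1 (chr16:23678639-23678938, plus strand), BUB1B (chr15:40160819-40161118, plus strand), HMMR (chr5:163460382-163460681, plus strand), KIF20A (chr5:138178862-138179161, plus strand) and CCNB1 (chr5:69166900-69167199, plus strand) are shown as examples, chosen after their values were seen, of how the motifs lie in promoters of genes called lower in the pools, with matches to the 3 motifs on either strand in capitals.
PLK1: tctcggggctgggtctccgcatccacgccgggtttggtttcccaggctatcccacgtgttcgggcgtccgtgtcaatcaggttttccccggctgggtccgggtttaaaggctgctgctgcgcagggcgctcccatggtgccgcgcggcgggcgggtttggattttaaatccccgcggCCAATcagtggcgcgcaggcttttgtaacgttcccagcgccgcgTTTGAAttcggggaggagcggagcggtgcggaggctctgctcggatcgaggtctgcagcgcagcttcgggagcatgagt
BUB1B: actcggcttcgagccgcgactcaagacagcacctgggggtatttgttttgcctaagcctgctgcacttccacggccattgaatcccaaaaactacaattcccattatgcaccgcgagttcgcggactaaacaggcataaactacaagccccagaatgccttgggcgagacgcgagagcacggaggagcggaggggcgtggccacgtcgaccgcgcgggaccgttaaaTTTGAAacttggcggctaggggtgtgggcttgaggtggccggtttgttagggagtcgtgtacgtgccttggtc
HMMR: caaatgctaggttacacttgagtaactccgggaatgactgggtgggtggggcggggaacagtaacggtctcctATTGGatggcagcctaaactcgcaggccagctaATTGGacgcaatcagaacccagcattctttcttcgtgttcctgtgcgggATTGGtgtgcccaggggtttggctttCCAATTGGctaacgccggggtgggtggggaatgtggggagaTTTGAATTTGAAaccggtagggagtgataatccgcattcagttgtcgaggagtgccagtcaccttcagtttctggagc
KIF20A: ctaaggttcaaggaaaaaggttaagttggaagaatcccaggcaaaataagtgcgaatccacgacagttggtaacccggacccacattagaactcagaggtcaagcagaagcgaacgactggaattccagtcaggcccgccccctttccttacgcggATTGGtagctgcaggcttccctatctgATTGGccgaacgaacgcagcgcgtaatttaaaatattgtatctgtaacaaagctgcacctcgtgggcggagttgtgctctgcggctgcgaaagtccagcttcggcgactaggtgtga
CCNB1: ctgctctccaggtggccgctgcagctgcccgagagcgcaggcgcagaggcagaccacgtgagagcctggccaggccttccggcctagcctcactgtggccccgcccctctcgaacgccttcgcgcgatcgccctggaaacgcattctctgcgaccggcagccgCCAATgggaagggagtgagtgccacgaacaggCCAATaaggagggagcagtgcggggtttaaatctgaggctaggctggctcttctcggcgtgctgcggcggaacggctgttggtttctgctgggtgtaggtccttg
PLK1 has 1 CCAAT and 1 TTTGAA close to the start, BUB1B has TTTGAA alone, HMMR has a run of 2 TTTGAA beside direct and inverted CCAAT boxes, a pair of which overlap, KIF20A has 2 inverted CCAAT boxes, and CCNB1 has 2 CCAAT boxes with none of the other letters in this window.

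The genes of G1/S and replication leaned the other way. Of 53 tested in the pools, 10 were called higher and none lower (1.74% of all genes were called higher), 49 were above 0 (49.9% of all genes were) and the median was 0.10. This list was also drawn up with earlier results of these data known, so its direction is not independent evidence. E2F7, a repressor of the E2F family, measured 32.0 and 32.4 CPM with idarubicin against 26.9 and 24.1 with mitoxantrone (0.36 ± 0.07, adjusted p = 0.00249). FEN1, the flap endonuclease of lagging-strand synthesis, was at 0.20 ± 0.05 (adjusted p = 0.0123), E2F2 at 0.21 ± 0.05 (adjusted p = 0.0191), and CDC6, a factor that licenses origins, at 0.18 ± 0.05 (adjusted p = 0.0171). With 1 pool left out fewer of the list were called higher: 2 without mitoxantrone pool 1, 0 without mitoxantrone pool 2, and 1 without either idarubicin pool. With the 4 drug pools alone in the fit 17 were called higher. In the wells 44 were tested, 32 were above 0 (49.7% of all genes were) and none was called by edgeR (5 at an unadjusted p under 0.05).

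The NF-kB list had its called genes mainly on the side of idarubicin. Of 25 tested in the pools 6 were called higher and 1 lower (1.74% and 2.66% of all genes were), 21 were above 0 (49.9% of all genes were) and the median was 0.17. This list was also drawn up with earlier results of these data known and holds RELB, so its direction is not independent evidence. Beside RELB, ICAM1, an adhesion molecule for leukocytes, measured 79.5 and 81.6 CPM with idarubicin against 56.3 and 55.9 with mitoxantrone and 36.1 and 35.2 with DMSO (0.55 ± 0.05, adjusted p = 8.45e-09). NFKB2, which encodes the p100 precursor of the RELB partner p52, measured 50.4 and 47.1 CPM against 34.8 and 34.2, with 22.6 and 22.6 in DMSO (0.52 ± 0.06, adjusted p = 9.64e-07). TNIP1, an inhibitor of the pathway, measured 99.9 and 97.6 against 82.6 and 83.0 (0.28 ± 0.05, adjusted p = 0.00072). The other two called higher were TNFAIP3 and SOD2, and the 1 called lower was NFKBIZ, all named after their values were seen. RELA, which encodes the p65 subunit, was at -0.02 ± 0.05 (adjusted p = 0.905) and was not called. With a pool left out, 4 to 7 of the list were called higher.

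Among the targets of these drugs, TOP2A, the topoisomerase II of dividing cells, measured 334 and 342 CPM with idarubicin, 426 and 414 with mitoxantrone and 875 and 873 with DMSO, a difference of -0.29 ± 0.04 (adjusted p = 5.7e-05). In the wells it ranged from 58.6 to 106.8 CPM with idarubicin and from 72.0 to 142.2 with mitoxantrone (-0.28 ± 0.13, adjusted p = 0.765). TOP2B, the form also present in resting cells, was at -0.03 ± 0.05 (adjusted p = 0.815) and TOP1 at 0.04 ± 0.05 (adjusted p = 0.782) in the pools, and the other 6 members of the list of topoisomerases and their repair factors were not called. Of 33 p53 targets 1 was called, a share near the 4.4% of all genes: CDKN1A, which encodes the CDK inhibitor p21, measured 25.6 and 26.6 CPM with idarubicin against 21.0 and 22.4 with mitoxantrone and 12.1 and 12.0 with DMSO (0.29 ± 0.08, adjusted p = 0.0304). Its call was lost with DESeq2 (adjusted p = 0.108) and without mitoxantrone pool 1 (0.294), mitoxantrone pool 2 (0.106), idarubicin pool 1 (0.0925) or idarubicin pool 2 (0.216). MDM2, the ubiquitin ligase of p53, was at -0.09 ± 0.06 (adjusted p = 0.461). Of 36 genes of DNA damage signalling and repair edgeR called 0, beside 4.4% of all genes, and 4 had an unadjusted p under 0.05, beside 16.8% of all genes. Their median was -0.01. BTG3, an antiproliferative gene, was called higher (0.36 ± 0.07, adjusted p = 0.00139), and CASP2, a caspase, was not (-0.03 ± 0.05, adjusted p = 0.839).

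Of 40 genes of the immediate early list tested in the pools, 5 were called, all of them lower with idarubicin (2.66% of all genes were called lower). ID1, a relative of ID3, measured 36.3 and 33.0 CPM against 53.7 and 54.7 with mitoxantrone and 53.9 and 54.9 with DMSO (-0.62 ± 0.06, adjusted p = 2.6e-08), so in the pools mitoxantrone stood near DMSO and idarubicin below both. The wells gave another order, with ID1 medians of 17.9 CPM with idarubicin, 18.9 with mitoxantrone and 33.5 with DMSO. Its difference between the drugs there was -0.47 ± 0.29 and was not called (adjusted p = 0.860). ZFP36L2, an mRNA-decay factor, was at -0.33 ± 0.05 (adjusted p = 2.32e-05) and HES1, a target of Notch signalling, at -0.36 ± 0.06 (adjusted p = 0.000438). FOS, a subunit of AP-1, was at -0.68 ± 0.15 (adjusted p = 0.00457) from levels of 4.24 and 3.27 CPM against 6.39 and 5.83, and its call was lost without mitoxantrone pool 1 (0.0959) or idarubicin pool 2 (0.155). The fifth was ID2, named after its values were seen. Of the 40 members 28 were below 0 (50.1% of all genes were), with a median of -0.07.

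**Figure D5:**
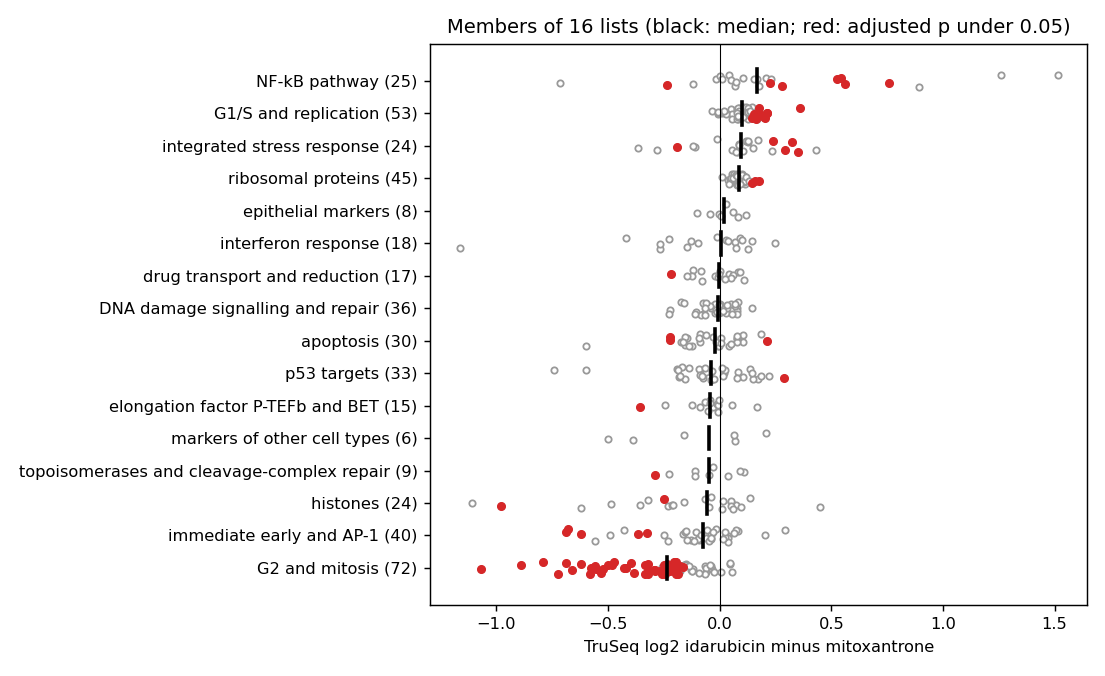
TruSeq log2 difference, idarubicin minus mitoxantrone, of the members of 16 gene lists, with the number tested in brackets, the median as a black line and members with an adjusted p under 0.05 in red. The G2 and mitosis list has the lowest median (-0.24) and the NF-kB list the highest (0.17). No red point lies in the interferon list, the DNA damage list or either list of cell type markers.

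Outside the lists the largest differences among genes at 10 CPM or more were on the lower side. PIF1, a DNA helicase, measured 8.03 and 7.40 CPM with idarubicin, 21.2 and 19.9 with mitoxantrone and 66.1 and 65.1 with DMSO (-1.39 ± 0.10, adjusted p = 9.05e-12). SYCP2, a protein of the synaptonemal complex of meiosis, measured 5.85 and 5.23 against 10.7 and 11.4, with 9.66 and 9.11 in DMSO (-0.97 ± 0.11, adjusted p = 4.09e-07). METTL7A stood at -0.79 ± 0.10 (adjusted p = 2.74e-06) and TNFAIP8L1 at -0.71 ± 0.08 (adjusted p = 3.55e-07). In the pools PIF1, METTL7A and TNFAIP8L1 had mitoxantrone between DMSO and idarubicin, while SYCP2 did not.

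On the higher side RELB came first. ANKRD33B followed at 10.2 and 11.4 CPM against 7.15 and 7.07 (0.62 ± 0.12, adjusted p = 0.00167). CRISPLD2, a secreted protein, measured 43.6 and 42.0 against 29.0 and 28.3, with 30.7 and 30.4 in DMSO (0.60 ± 0.06, adjusted p = 2.6e-08), so in the pools its idarubicin level stood apart from the other 2. The wells did not show this, with CRISPLD2 means of 12.5 CPM with idarubicin, 12.1 with mitoxantrone and 18.1 with DMSO. GBP1, a GTPase that interferon induces, was at 0.60 ± 0.10 (adjusted p = 0.000142), and ADCY9, an adenylyl cyclase, at 0.59 ± 0.10 (adjusted p = 0.000261). CLDN1, a tight junction protein, measured 59.8 and 65.1 CPM against 42.5 and 42.2 (0.58 ± 0.07, adjusted p = 3.51e-07). CROCC, a protein of the ciliary rootlet, was at 0.57 ± 0.11 (adjusted p = 0.00125), and the transcription factor ETS1 at 0.56 ± 0.09 (adjusted p = 6.47e-05). CRISPLD2 and CLDN1 were the members of this group tested in the wells besides RELB, at 0.05 and 0.16, and were not called there.

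Gene length was set beside the difference because drugs that act on DNA can affect long genes. A position in the GENCODE annotation was found for 83.6% of the genes tested in the pools. The median difference was 0.01 in the shortest of 4 equal classes of genes (median length 6.45 kb), 0.01 and 0.00 in the middle classes and -0.01 in the longest (median length 138.7 kb). The share below 0 was 46.7% in the shortest class and 54.9% in the longest. The medians of the longest and shortest classes differed by -0.022, and with a pool left out by -0.048 to -0.0022, the lowest without idarubicin pool 2.

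U87 cells, a glioblastoma line, had received the same pair of compounds at other doses and for a longer time, 0.024 µM idarubicin and 0.012 µM mitoxantrone (labelled Mitoxanthrone dihydrochloride) for 24 h, with 2 wells of each on 2 plates and 417770 to 498149 counts a well. Of 10037 genes tested with the plate as a term, 432 were called (4.3%), 265 of them higher with idarubicin (2.64%) and the rest lower (1.66%). The share called was 1.59% without idarubicin well 1, 3.11% without idarubicin well 2, 2.69% without mitoxantrone well 1 and 1.53% without mitoxantrone well 2. None of the 5 genes called in the BT20 wells was called in U87 cells. PLK1 measured 12.0 and 10.0 CPM with idarubicin and 6.52 and 24.3 with mitoxantrone (-0.61 ± 0.77, adjusted p = 0.783), and RELB 33.5 and 20.1 against 23.9 and 14.2 (0.34 ± 0.56, adjusted p = 0.852). UBE2C was at -0.01 ± 0.24 (adjusted p = 0.995). BUB1B, at 0.05 ± 0.40 (adjusted p = 0.987), and ID3, at 0.07 ± 0.52 (adjusted p = 0.984), had the opposite sign to the BT20 wells.

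Of the 71 G2 and mitosis genes tested in U87 cells 3 were called, all higher with idarubicin (2.64% of all genes were called higher); 30 were below 0 (50.6% of all genes were), and the median was 0.08. CENPE, a kinetochore motor, measured 215 and 182.7 CPM with idarubicin, 69.5 and 60.7 with mitoxantrone and 159.5 to 292 in the 4 DMSO wells of these plates (1.47 ± 0.28, adjusted p = 5.78e-05), and KIF20B and CENPF were the other two. TOP1 measured 737 and 325 CPM with idarubicin, 158.6 and 70.8 with mitoxantrone and 289 to 703 with DMSO (2.04 ± 0.34, adjusted p = 6.71e-06). The U87 wells also differed in RNA composition, in genes named after their values were seen: MALAT1, a nuclear noncoding RNA, stood at 3205 and 2301 CPM with idarubicin against 289 and 366 with mitoxantrone and 604 to 1167 with DMSO, and RPL36, a ribosomal protein mRNA, at 687 and 578 against 1484 and 1190. The part of that composition in the U87 result was not tested, nor was the difference between the cell lines.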

How the data were processed

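BT20 and U87 gene counts were used as the authors deposited them, as raw counts per gene symbol with no normalization. Per the labels the authors used BWA and hg19. For PLATE-Seq the methods state that the authors assigned reads to wells by barcode, with 1 error allowed, and counted uniquely mapped reads per symbol. The counting of the TruSeq reads is not given in the sources used here. The 92 spike-ins were left out of totals and tests. A gene present in near-identical copies, such as a histone or ribosomal protein gene, may share reads with them.

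CPM is a count scaled to the library total. Differences are those of the edgeR 4.0.16 quasi-likelihood test (R 4.3.3; TMM, filterByExpr, robust) with Benjamini-Hochberg adjustment over all genes tested, called under 0.05. The 24 wells formed 1 fit and all 16 pools another. The U87 fit had the plate as a term and a common dispersion from 1000 genes, with the spread of each gene by quasi-likelihood. DESeq2 1.42.0 and the other settings described at the end were alternatives. Permutation tests used 100000 resamples or were exact (scipy 1.17.1). Motif and position tables were made with Python 3.11.15 and pandas 2.3.3, and plots with matplotlib 3.10.9. Procedures were tested on simulated data.

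The members, the 16 lists and the roles were chosen with earlier results of these data known, so the direction of a list is not independent evidence. Genes named are those called in the wells, the 8 largest called differences each way in the pools at 10 CPM or more, up to 4 called members of each list by smallest p in the pools, and a fixed set of drug targets and cell cycle genes; others are marked as named after their values were seen, except comparison members of a list (AURKB, CEP55, RELA, markers).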

Additional observations from a re-analysis of the deposited data

How the results depend on the processing

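With replicate blocks by run of 8 wells, which do not pair the wells (deviations of the drugs' wells in a run correlated between -0.03 and 0.04, with 0 of 12 above 0.1), 4 genes were called in place of 5, and ID3 was lost (adjusted p = 0.0637). In the wells DESeq2 called 8 genes; without the first or the last 6 wells of each drug 0 were called, mitotic genes included; the wells with spike-ins gave 0 and 0 and those without 1 and 1, a division chosen after seeing the data. All wells in the fit gave 6 mitotic genes called lower in place of 3. In the pools DESeq2 called 428 genes, and 0.316% of genes at 1.5-fold or more, and the 4 pools alone gave 1452 genes and 0.817%, with 17 G1/S and 11 NF-kB genes higher. With a pool left out the ranges were 195 to 322 genes called, 0.275% to 0.432% of genes at 1.5-fold, 30 to 39 mitotic genes lower, 0 to 2 G1/S and 4 to 7 NF-kB genes higher, and 53.7% to 68.0% with mitoxantrone between DMSO and idarubicin (62.1% with DESeq2). The length difference ranged from -0.048 to -0.0022. In U87 cells 1.53% to 3.11% of genes were called with a well left out, and 1.97% with no filter, where more genes were tested. The difference in genes detected was 172.1 at 400000 counts. At 100000 counts it was 126.5 without the 6 most abundant symbols (two-sided permutation test, p = 0.00162), past the threshold in both. With all symbols at 100000 counts it was 69.1 and not past the threshold (p = 0.217). No named gene changed sign in an assay where it was called, but all 5 called in the wells and 21 of the 50 called in the pools lost the call under at least 1 setting. Genes that changed sign in an assay where they were not called were CDKN1A (-0.12 without the first 6 wells; it was called in the pools), TOP2B (0.13 without the last 6 wells, 0.35 in the wells with spike-ins, and -0.069 to 0.0068 in the pools with 1 left out), MDM2 (0.45 without the last 6 wells) and CASP2 (-0.062 to 0.012 in the pools with 1 left out). The cause of these changes was not tested, beyond the fewer samples of the sets that leave some out. RLE normalization called 5 genes in the wells and 643 in the pools.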

Other observations

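Ribosomal protein genes were shifted slightly to the side of idarubicin in the pools: all 45 had a difference above 0 (49.9% of all genes did), with a median of 0.09, and 3 were called higher (1.74% of all genes were) and none lower. These were RPS3 (0.16 ± 0.04, adjusted p = 0.00993), RPS20 (0.18 ± 0.04, adjusted p = 0.0122) and RPS23 (0.14 ± 0.04, adjusted p = 0.0483). Each of the 3 calls was lost with any 1 of the 4 pools left out, with adjusted p from 0.0668 to 0.156 for RPS3, 0.063 to 0.21 for RPS20 and 0.13 to 0.343 for RPS23. The RPS23 call was also lost with RLE normalization (0.0561) and DESeq2 (0.0615). In the wells 36 of 45 were above 0, with a median of 0.05, and edgeR called 0 (3 at an unadjusted p under 0.05). Of 24 genes of the integrated stress response 4 were called higher and 1 lower in the pools (1.74% and 2.66% of all genes were). SLC7A5, an amino acid transporter, measured 862 and 832 CPM with idarubicin against 708 and 669 with mitoxantrone (0.32 ± 0.04, adjusted p = 7.78e-06), its partner SLC3A2 was at 0.24 ± 0.04 (adjusted p = 0.000203), STC2 at 0.29 ± 0.06 (adjusted p = 0.00355), and ASNS, asparagine synthetase, at 0.35 ± 0.09 (adjusted p = 0.0224). The ASNS call was lost with DESeq2 (0.0575) and without mitoxantrone pool 1 (0.232), mitoxantrone pool 2 (0.103) or idarubicin pool 2 (0.306), and the STC2 call without mitoxantrone pool 2 (0.128).

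In the pools HEXIM1, an inhibitor of the elongation factor P-TEFb, had the drugs on opposite sides of DMSO. It measured 102.6 and 101.7 CPM with idarubicin, 131.6 and 134.2 with mitoxantrone and 113.2 and 111.8 with DMSO (-0.36 ± 0.05, adjusted p = 6.91e-06). The wells did not show this order: both drugs averaged below DMSO, at 39.4 CPM with idarubicin, 45.3 with mitoxantrone and 50.4 with DMSO. The difference between the drugs there was -0.17 ± 0.19 (adjusted p = 0.949). HEXIM1 was the 1 gene called of 15 in its list in the pools, a share near the 4.4% of all genes. Of 30 apoptosis genes CYCS, cytochrome c, was called higher (0.21 ± 0.05, adjusted p = 0.0161), and BCL2L1, an inhibitor of apoptosis, and BAK1, a pore-forming effector, were called lower (-0.22 ± 0.05 and -0.22 ± 0.07, adjusted p = 0.0112 and 0.0453), beside 4.4% of all genes called. The calls of BCL2L1 (0.0662 to 0.182) and BAK1 (0.104 to 0.298) were lost with any 1 pool left out, that of BAK1 also with DESeq2 (0.0947), and that of CYCS without mitoxantrone pool 1 (0.146), mitoxantrone pool 2 (0.136) or idarubicin pool 2 (0.257). Of 24 histone genes tested, HIST1H2BK (-0.25 ± 0.06, adjusted p = 0.0122) and HIST1H2BD (-0.98 ± 0.27, adjusted p = 0.0302) were called lower (2.66% of all genes were), the latter from levels of 0.98 and 1.03 CPM against 1.86 and 2.18. The HIST1H2BD call was lost with any 1 pool left out (0.0952 to 0.292), and that of HIST1H2BK without mitoxantrone pool 1 (0.206), mitoxantrone pool 2 (0.0538) or idarubicin pool 2 (0.242). AKR1C3, a ketone reductase, was called lower among 17 genes of drug transport and reduction (-0.22 ± 0.06, adjusted p = 0.0482), beside 2.66% of all genes. Its call was lost with DESeq2 (0.0934) and with any 1 pool left out (0.058 to 0.543). Of 18 interferon response genes tested in the pools edgeR called 0, beside 4.4% of all genes, and 3 had an unadjusted p under 0.05, beside 16.8% of all genes. Of the 8 epithelial markers tested and the 6 tested markers of other cell types edgeR called 0 in the pools, with 1 of each at an unadjusted p under 0.05.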
